A study of Mus musculus with 12 samples.

Results

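Eicosanoids are signaling lipids that macrophages make from arachidonic acid, and the genes that code for their synthesis were examined in cultured mouse peritoneal macrophages (PMs) on Affymetrix Mouse 430V2 arrays. The set was chosen by name and holds 10 genes: Pla2g4a for the shared first step, Alox5, Alox5ap, Ltc4s and Lta4h for leukotrienes, Alox15 for lipoxins, and Ptgs1, Ptgs2, Ptges and Ptgis for prostanoids. A probe set of its own was paired with 9 of them, among 18193 genes on the arrays, and Ptgs1 was not analysed here. Where a gene had several probe sets, the one with the highest mean over the 12 arrays was used.

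The study asked how miR-21 carried by exosomes of sensory neurons acts on macrophages. There were 6 groups of 2 arrays, formed by 3 transfections and 2 kinds of exosomes. PMs were transfected with antagomir-21, an oligonucleotide that blocks miR-21, with a scramble control oligonucleotide, or were given lipofectamine alone, and were exposed to exosomes of sensory neurons that overexpressed miR-21 or a GFP reporter. All groups thus shared the transfection reagent and neuronal exosomes, and no group was free of either. PMs were cells of a peritoneal lavage that adhered to the dish and were not sorted. Mice of the study were C57BL/6 of both sexes, but which of them gave these PMs and at what age was not stated, and neither were the exosome dose and the exposure time of these cultures. The lipofectamine groups are named in the labels and not in the methods, and the methods state more replicates per condition than the 2 arrays analysed here.

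In background, cytosolic phospholipase A2 frees arachidonic acid from membranes, and 5-lipoxygenase, with its helper protein FLAP, turns it into leukotriene A4. Leukotriene A4 is then hydrolysed to leukotriene B4, which attracts neutrophils, or joined to glutathione to give leukotriene C4. The cyclooxygenases COX-1 and COX-2 instead give prostaglandin H2, which downstream synthases convert into prostaglandin E2, prostacyclin and other prostanoids, while 12/15-lipoxygenase takes part in making lipoxins, lipids that help inflammation to end. Resident peritoneal macrophages are a classical source of both leukotrienes and prostanoids, and prostaglandin E2 and prostacyclin sensitize nociceptors.

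The mature miRNA that antagomir-21 targets and the exosomes carried is shown because it separates the groups (RefSeq, GRCm38.p6, chr11:86584120-86584141, minus strand). Capitals mark its seed, bases 2 to 8.
mmu-miR-21a-5p: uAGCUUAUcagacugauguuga
The annotated start of Ptgs2, the gene of COX-2 and the member whose arrays differed between exosomes in every transfection, lies at chr1:150099781-150100080 on the plus strand (RefSeq, GRCm38.p6). The window runs from 250 bases before to 50 bases after this annotated start of transcription. Capitals mark matches to GGGCGG, a GC box, at bases 81 to 86, to TGACGT, the core of a cAMP response element, read on the other strand at bases 263 to 268, and to CACGTG, an E-box, at bases 267 to 272.
Ptgs2 promoter: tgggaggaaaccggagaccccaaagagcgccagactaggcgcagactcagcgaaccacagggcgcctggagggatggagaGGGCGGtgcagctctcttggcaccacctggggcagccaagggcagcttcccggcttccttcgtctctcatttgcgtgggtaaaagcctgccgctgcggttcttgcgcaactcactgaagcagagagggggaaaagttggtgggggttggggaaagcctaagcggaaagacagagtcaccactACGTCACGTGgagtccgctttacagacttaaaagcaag
The cAMP response element and the E-box overlap by 2 bases, and both lie after the annotated start. Whether transcription began there in these PMs was not tested. Searched on both strands of 32851 RefSeq promoters of the same length, the GC box was found in 35.7%, the cAMP element in 7.51% and the E-box in 7.15%. TATAAA was found in 13.6% of them and had no match in this window.

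The PMs carried macrophage transcripts on every array. Mean log2 signals were 16.43 for Csf1r, 12.87 for Adgre1 and 16.94 for Lyz2, and their lowest were 15.45, 11.70 and 15.81. All 10 macrophage markers had a probe set, with means from 8.43 (Icam2) to 16.94. Gata6 and Timd4, which mark resident peritoneal macrophages, had mean log2 signals of 8.78 and 8.88. Markers of other cells that a lavage can hold varied widely in signal. Mean log2 signals ran from 6.39 (Mcpt4) to 10.02 (Cpa3) for mast cells and from 5.96 (Pax5) to 12.41 (Ms4a1) for B cells. For platelets they ran from 6.16 (Itga2b) to 14.41 (Pf4, which macrophages also express). In each of these lists the dimmest gene lay below the array medians (7.92 to 8.58), so the lists alone do not show such cells. Arrays of one group correlated no better over all genes (mean r 0.591 over 6 pairs) than arrays of different groups (mean r 0.602 over 60 pairs), and no gene passed an adjusted p under 0.05 in any comparison (limma). Members are therefore counted where the unadjusted limma p was under 0.05, as in the methods, and this count is set beside the share of all genes that did so. Fold changes are given ± SE, and a change is below that threshold where its 95% confidence interval (CI) leaves out 0. An exact two-sided permutation test of 2 arrays against 2 cannot go below p = 0.333.

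**Figure D1:**
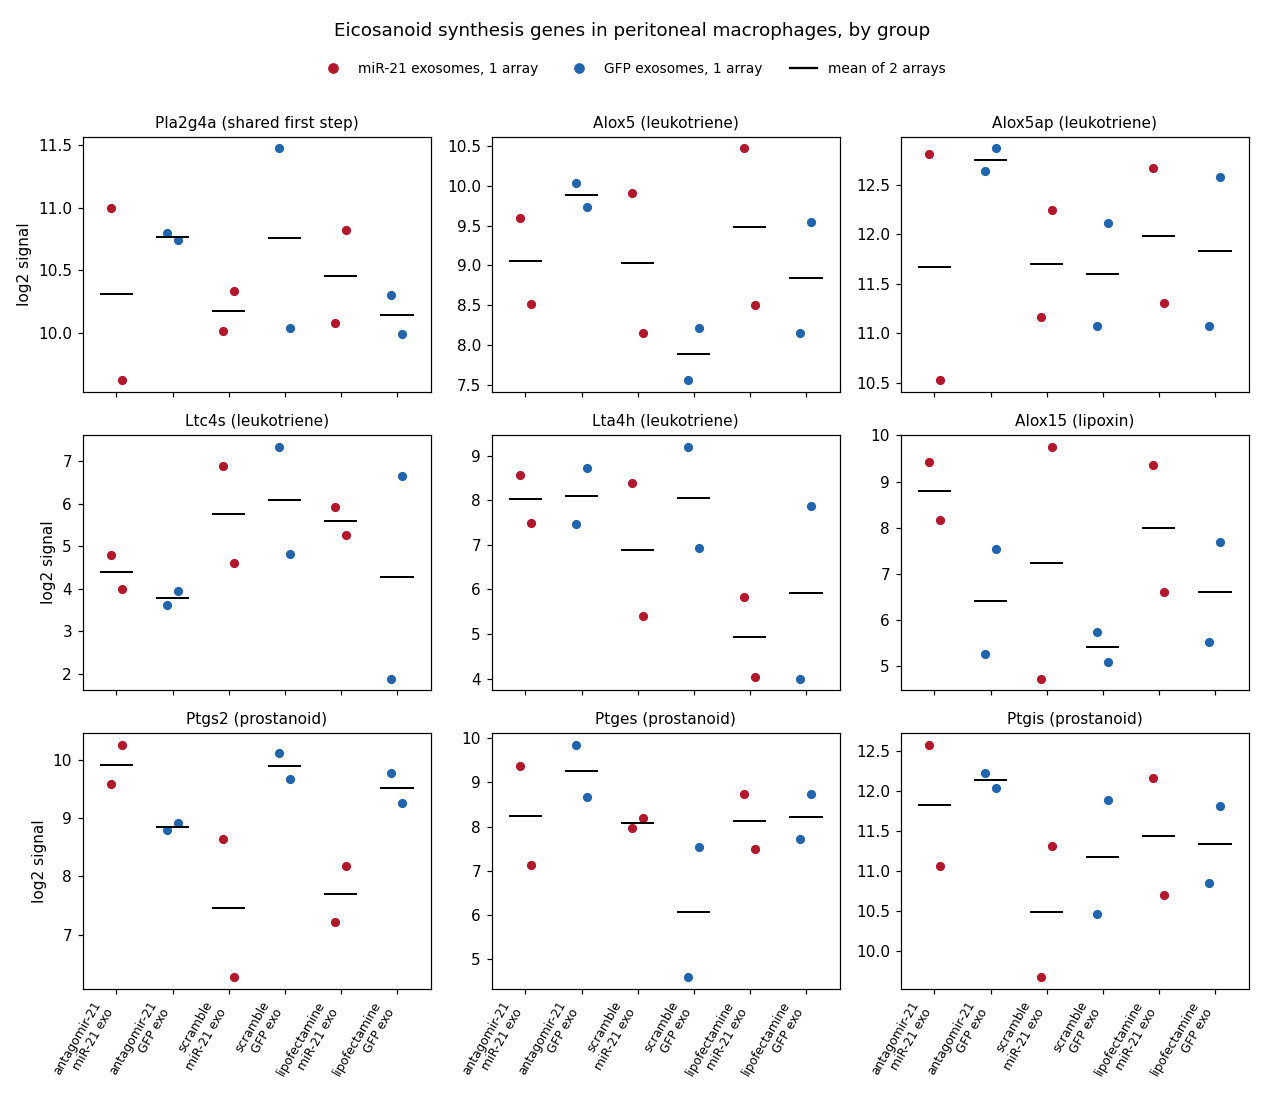
Log2 signal of the 9 measured eicosanoid synthesis genes by group. Each point is 1 array, red with miR-21 and blue with GFP exosomes, and black lines are means of 2 arrays, with a separate vertical axis for each gene. Ptgs2 points with miR-21 exosomes lie below those with GFP exosomes after scramble and after lipofectamine, and above them after antagomir-21.

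Ptgs2, which codes for COX-2, the inducible enzyme that makes prostaglandin H2, was lower with miR-21 than with GFP exosomes in scramble-transfected PMs and in PMs given lipofectamine alone, but not in antagomir-21–transfected PMs. After scramble, its log2 signals were 8.63 and 6.28 with miR-21 exosomes, against 10.10 and 9.66 with GFP exosomes. After lipofectamine alone they were 7.22 and 8.17 with miR-21 exosomes, against 9.76 and 9.26 with GFP exosomes. After antagomir-21 they were 9.57 and 10.25 with miR-21 exosomes, against 8.79 and 8.91 with GFP exosomes. The arrays of the 2 exosomes did not overlap in any of the 3 transfections, and the order was turned only after antagomir-21. Of the 9 members Ptgs2 alone was separated in all 3 transfections, as were 3.56% of all genes, in whichever direction.

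Thus, with scramble, miR-21 exosomes went with a log2 fold change of Ptgs2 of −2.43 ± 0.97 (5.38-fold lower, CI −4.59 to −0.27, adjusted p = 0.814 by limma) compared with GFP exosomes. With lipofectamine alone it was −1.81 ± 0.97 (CI −3.97 to 0.35), and with antagomir-21 it was 1.07 ± 0.97 (CI −1.10 to 3.23). With miR-21 exosomes, antagomir-21–transfected PMs had 5.49-fold more Ptgs2 signal than scramble-transfected PMs (log2 fold change 2.46 ± 0.97, CI 0.30 to 4.62, adjusted p = 0.896), and their arrays did not overlap. With GFP exosomes the same comparison gave −1.04 ± 0.97 (CI −3.20 to 1.12). The difference between these last 2 effects was itself tested as an interaction and was 3.49 ± 1.38 on the log2 scale (CI 0.44 to 6.55, adjusted p = 0.883). Over all transfections, miR-21 exosomes gave −1.06 ± 0.56 (CI −2.31 to 0.19). The contrasts share arrays, those of scramble with miR-21 exosomes above all, and are not independent of each other.

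In order of its group means, Ptgs2 ran through antagomir-21 with miR-21 exosomes, scramble with GFP, lipofectamine with GFP, antagomir-21 with GFP, lipofectamine with miR-21 and scramble with miR-21 exosomes. The first 3 of these overlapped, as did the last 2. The step between antagomir-21 with GFP and lipofectamine with miR-21 exosomes was the only one between neighbors larger than the spread between replicates, at 1.15 against a pooled SD of 0.78.

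The unadjusted call of Ptgs2 after scramble rested on few arrays. It did not pass the unadjusted threshold without replicate 2 of scramble with miR-21 exosomes (log2 fold change −1.25), nor without replicate 1 (−2.21) or replicate 2 (−2.65) of scramble with GFP exosomes. The call of antagomir-21 against scramble with miR-21 exosomes was lost without replicate 2 of scramble (1.28) and without replicate 2 of antagomir-21 (2.12). The interaction was lost without replicate 2 of scramble with miR-21 exosomes (2.32), and at 3.16 to 3.55 without replicate 1 of scramble with GFP exosomes, either replicate of antagomir-21 with GFP exosomes or replicate 2 of antagomir-21 with miR-21 exosomes. The direction of all 3 was the same without any one array.

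**Figure D2:**
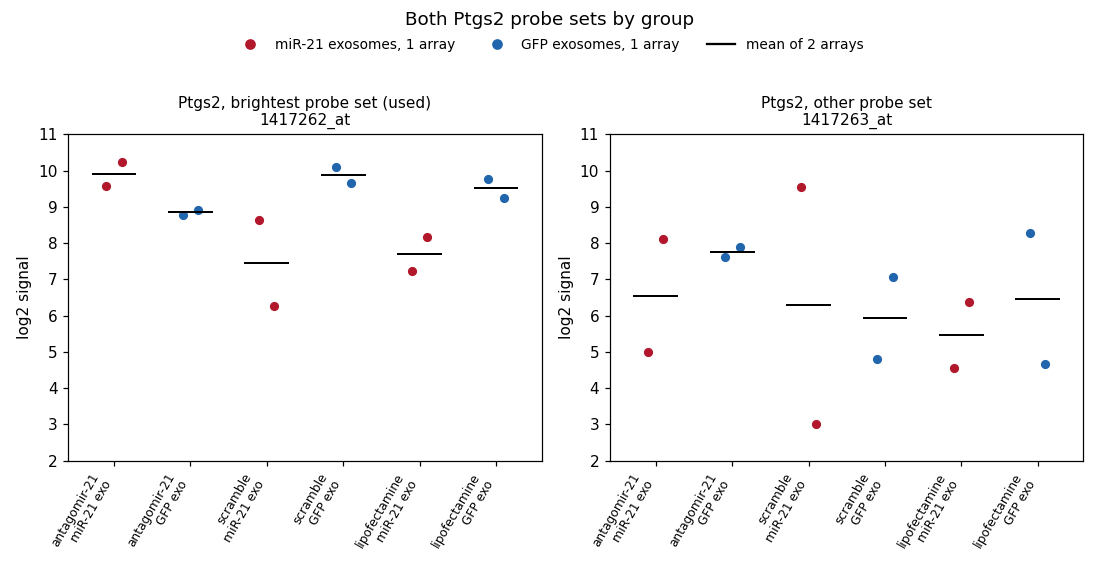
Log2 signal of both Ptgs2 probe sets by group on one scale. Each point is 1 array and black lines are means of 2 arrays. The used probe set on the left separates the exosomes within each transfection, whereas with the other probe set the arrays of the 2 exosomes overlap in all 3 transfections.

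The second Ptgs2 probe set did not show the same pattern. After scramble it had log2 signals of 9.56 and 3.01 with miR-21 exosomes, against 4.79 and 7.07 with GFP exosomes, and after antagomir-21 4.98 and 8.11 against 7.61 and 7.89. The exosomes overlapped there, and the spread within groups was wide. Over 12 arrays the 2 probe sets had a Pearson r of 0.463 (permutation p = 0.133, adjusted over 5 probe set pairs p = 0.664) and a Spearman rho of 0.392 (permutation p = 0.209, adjusted p = 0.584), with r −0.218 when the 2 arrays farthest from the median were left out. With the mean of both probe sets, the log2 fold changes were −1.04 for miR-21 exosomes after scramble, −0.070 for miR-21 exosomes after antagomir-21, 1.36 for antagomir-21 with miR-21 exosomes and 0.97 for the interaction, and none passed the unadjusted threshold.

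The summed signal of sensory neuron markers was lower with miR-21 than with GFP exosomes after scramble and after lipofectamine, as Ptgs2 was. It overlapped after antagomir-21. These neurons were the source of the exosomes. The 7 of 8 markers measured had mean log2 signals of 5.51 (Scn10a) to 8.54 (Snap25), against array medians of 7.92 to 8.58. Such levels do not show that neuronal RNA was present, and the brightest markers weigh most in the sum. After scramble the log2 of the summed signal ran from 10.12 to 10.48 with miR-21 exosomes, against 10.96 to 11.54 with GFP exosomes. After lipofectamine it ran from 10.04 to 10.93, against 11.05 to 11.63. After antagomir-21 it ran from 10.48 to 11.25 with miR-21 and from 10.07 to 10.80 with GFP exosomes. Several marker lists were summed in this way, and how many lists or genes showed the order of Ptgs2 was not counted. The part of these markers in the Ptgs2 result was not tested.

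Ptges, which codes for the inducible synthase that turns prostaglandin H2 into prostaglandin E2, was lowest in scramble-transfected PMs with GFP exosomes. There, antagomir-21–transfected PMs had log2 signals of 9.85 and 8.67, against 4.60 and 7.53 in scramble-transfected PMs. The groups did not overlap, and the log2 fold change was 3.19 ± 1.20 (9.12-fold, CI 0.52 to 5.86, adjusted p = 0.806). The scramble arrays lay far apart. Without the one at 4.60 (replicate 1) the change was 1.72, and without replicate 1 of antagomir-21 it was 2.60, neither past the unadjusted threshold.

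With miR-21 exosomes, Ptges signals were 9.37 and 7.13 in antagomir-21–transfected PMs and 7.96 and 8.20 in scramble-transfected PMs, which overlapped (log2 fold change 0.17 ± 1.20, CI −2.50 to 2.84). After scramble, miR-21 exosomes were 2.01 ± 1.20 above GFP exosomes on the log2 scale (CI −0.66 to 4.68), and their arrays did not overlap. How many of all genes were separated in this comparison was not counted. Lipofectamine alone gave 8.74 and 7.50 with miR-21 exosomes, against 7.71 and 8.74 with GFP exosomes. The interaction was −3.02 ± 1.70 (CI −6.80 to 0.76). Over both exosomes, antagomir-21 was 1.68 ± 0.85 above scramble (CI −0.21 to 3.57). Ptges had 2 other probe sets, with a Pearson r to the one used of −0.23 and 0.199 (permutation p = 0.485 and 0.558, adjusted over 5 pairs p = 0.697 for both) and a Spearman rho of −0.175 and 0.343 (adjusted permutation p = 0.585 and 0.584). Without the 2 farthest arrays r was −0.359 and 0.401. With the mean of the 3 probe sets the change with GFP exosomes was 1.41 and did not pass the unadjusted threshold.

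Ptgis, the synthase of prostacyclin, was not separated by the exosomes. Its log2 signals with antagomir-21 were 12.58 and 11.06 with miR-21 and 12.23 and 12.04 with GFP exosomes, with scramble 9.67 and 11.31 and 10.47 and 11.89, and with lipofectamine alone 12.17 and 10.70 and 10.85 and 11.82, in the same order of exosomes. All neighboring groups overlapped. Antagomir-21 over scramble was 1.15 ± 0.74 across both exosomes (CI −0.49 to 2.78).

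Pla2g4a, cytosolic phospholipase A2, gave log2 signals between 9.62 and 11.47 over the 12 arrays, with a pooled within-group SD of 0.62. With scramble the arrays were 10.02 and 10.34 with miR-21 and 11.47 and 10.04 with GFP exosomes, and all neighboring groups overlapped. None of its fold changes in the 9 comparisons passed the unadjusted threshold, and for antagomir-21 against scramble over both exosomes the CI ran from −1.35 to 1.49 on the log2 scale.

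In the leukotriene branch, no member passed an unadjusted p under 0.05. Alox5, the 5-lipoxygenase, came nearest with GFP exosomes, where antagomir-21–transfected PMs had log2 signals of 10.04 and 9.74, against 7.56 and 8.21 in scramble-transfected PMs. The arrays did not overlap, with a log2 fold change of 2.01 ± 1.05 (CI −0.33 to 4.34, adjusted p = 0.986). With miR-21 exosomes the signals were 9.60 and 8.52 in antagomir-21–transfected PMs and 9.91 and 8.15 in scramble-transfected PMs, and after lipofectamine alone they were 10.47 and 8.50 with miR-21 and 8.15 and 9.54 with GFP exosomes, so that these groups overlapped.

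Alox5ap, which codes for FLAP, gave 12.64 and 12.87 with antagomir-21 and GFP exosomes, against 11.07 and 12.12 with scramble and GFP exosomes. These arrays did not overlap, and the log2 fold change was 1.16 ± 1.07 (CI −1.23 to 3.54). In the other 4 groups the replicates differed as much as in scramble with GFP exosomes or more, at 12.81 and 10.52 with antagomir-21 and miR-21 exosomes, 11.17 and 12.24 with scramble and miR-21 exosomes, 12.67 and 11.31 with lipofectamine and miR-21 exosomes and 11.08 and 12.58 with lipofectamine and GFP exosomes.

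Ltc4s, leukotriene C4 synthase, had signals from 1.88 to 7.35, and its mean of 4.98 lay at the 0.9 percentile of all genes, among the dimmest on the arrays. It was 4.80 and 3.998 with antagomir-21 and miR-21 exosomes and 3.63 and 3.94 with antagomir-21 and GFP exosomes, against 6.90 and 4.61 with scramble and miR-21 exosomes and 7.35 and 4.83 with scramble and GFP exosomes. After lipofectamine alone it was 5.92 and 5.26 with miR-21 exosomes and 1.88 and 6.66 with GFP exosomes. Every antagomir-21 array except 1 thus lay below every scramble array, and the log2 fold change over both exosomes was −1.83 ± 1.08 (CI −4.23 to 0.56, adjusted p = 0.992). Ltc4s is also expressed by mast cells, and of their markers 8 of 8 were measured, with mean log2 signals of 6.39 to 10.02. The log2 of their summed signal ran from 10.96 to 11.60 and 11.63 to 11.72 with antagomir-21 (miR-21 and GFP exosomes), and from 12.09 to 12.14 and 11.59 to 11.81 with scramble. Their part in the Ltc4s values was not tested, and less RNA per cell cannot be told apart from fewer cells of a type in bulk cultures.

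Lta4h, the hydrolase that makes leukotriene B4, gave 8.57 and 7.48 with antagomir-21 and miR-21 exosomes, 7.46 and 8.71 with antagomir-21 and GFP, 8.38 and 5.41 with scramble and miR-21, 9.20 and 6.92 with scramble and GFP, 5.84 and 4.04 with lipofectamine and miR-21, and 3.997 and 7.86 with lipofectamine and GFP exosomes. The mean log2 signal of Lta4h, 6.99, lay at the 28.7 percentile of all genes. Scramble was 2.04 ± 1.07 above lipofectamine alone on the log2 scale over both exosomes (CI −0.33 to 4.42), with overlapping arrays. Its 2 further probe sets had a Pearson r to the one used of −0.341 and 0.018 (permutation p = 0.272 and 0.955, adjusted over 5 pairs p = 0.681 and 0.955) and a Spearman rho of −0.245 and −0.231 (adjusted permutation p = 0.584 for both). Without the 2 farthest arrays r was −0.136 and −0.042, and with the mean of the 3 probe sets the difference was 0.95.

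In the lipoxin branch, Alox15, the 12/15-lipoxygenase, which resident peritoneal macrophages of the mouse are known to express, varied most between replicates among the members measured (pooled SD 1.93). Its mean log2 signal of 7.08 lay at the 30.8 percentile of all genes and below every array median (7.92 to 8.58). Such a level does not show that Alox15 was expressed in these PMs. Alox15 gave 9.42 and 8.16 after antagomir-21, 4.73 and 9.76 after scramble and 9.37 and 6.61 after lipofectamine alone with miR-21 exosomes. With GFP exosomes it gave 5.27 and 7.55 after antagomir-21, 5.74 and 5.09 after scramble and 5.53 and 7.70 after lipofectamine alone. The exosomes overlapped after scramble and after lipofectamine, and after antagomir-21 both arrays with miR-21 exosomes lay above both with GFP exosomes. The share of all genes separated after antagomir-21 was not counted.

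Over all transfections Alox15 was 1.86 ± 0.96 higher with miR-21 than with GFP exosomes on the log2 scale (3.64-fold, CI −0.27 to 3.995, adjusted p = 0.952), which did not pass the threshold. The array at 4.73, replicate 1 of scramble with miR-21 exosomes, stood against this direction. Without it the difference was 2.70, and without replicate 2 of lipofectamine with miR-21 exosomes it was 2.32, both then past the unadjusted threshold. In the other direction it was 1.02 without replicate 2 of scramble with miR-21 exosomes, 1.40 without replicate 1 of lipofectamine with miR-21 exosomes and 1.48 without replicate 1 of antagomir-21 with GFP exosomes. Markers of mesothelial cells, 7 of 7 measured, had mean log2 signals of 5.31 to 7.96, which do not show that these cells were present. Their log2 summed signal with miR-21 exosomes was 10.56 to 10.80 after antagomir-21, 10.87 to 11.31 after scramble and 10.64 to 10.76 after lipofectamine. With GFP exosomes it was 10.12 to 10.21, 9.10 to 10.80 and 9.62 to 9.89 in the same order. Their part in the Alox15 values was not tested.

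**Figure D3:**
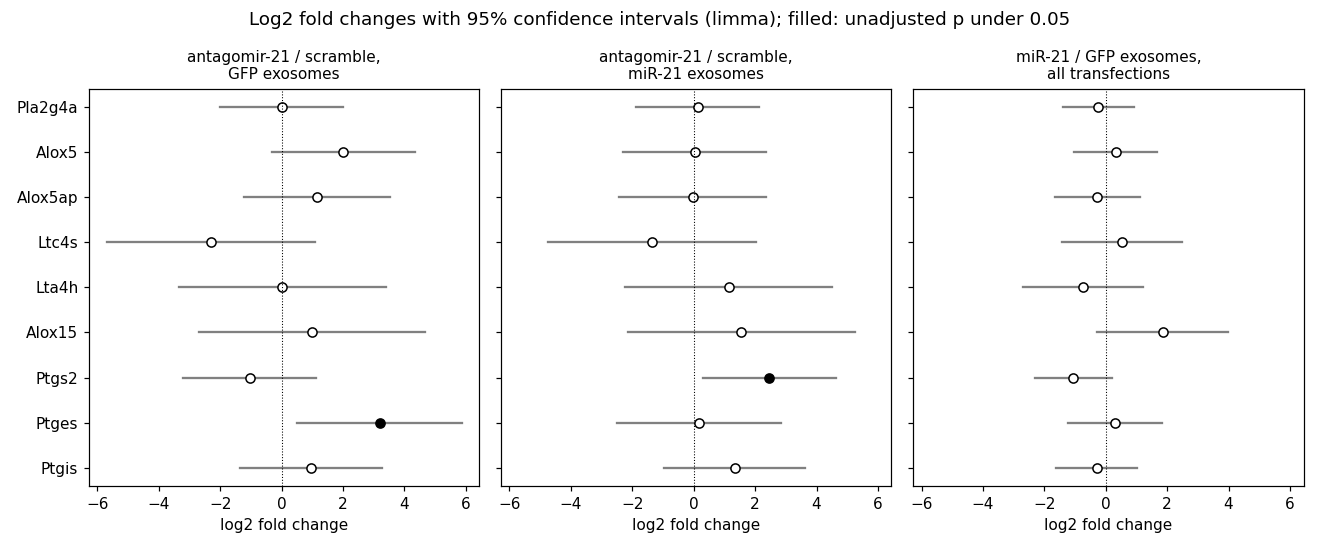
Log2 fold changes of the 9 members with 95% confidence intervals (limma) for antagomir-21 over scramble with GFP and with miR-21 exosomes and for miR-21 over GFP exosomes in all transfections. Filled points have an unadjusted p under 0.05. Ptges with GFP exosomes (3.19) and Ptgs2 with miR-21 exosomes (2.46) are the filled points.

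Across the set, the number of members called was close to what all genes gave. With GFP exosomes, antagomir-21 against scramble called 1 of 9 members (Ptges) and 5.38% of all genes, and with miR-21 exosomes 1 of 9 (Ptgs2) and 5.3% of all genes. Over both exosomes it called 0 of 9, beside 5.16% of all genes. miR-21 against GFP exosomes called 1 of 9 after scramble (Ptgs2, beside 5.7% of all genes), 0 of 9 after lipofectamine alone (3.84%), 0 of 9 after antagomir-21 (5.68%) and 0 of 9 over all transfections (5.45%). Scramble against lipofectamine alone called 0 of 9 (4.14%), and the interaction 1 of 9 (Ptgs2, 5.36%). At an adjusted p under 0.05 no member and no other gene was called in any of these 9 comparisons (limma), and the genes at an unadjusted p under 0.05 numbered 698 to 1037. Between antagomir-21 and scramble with GFP exosomes the arrays did not overlap for 6 of 9 members (Alox5, Alox5ap, Ltc4s, Ptgs2, Ptges and Ptgis) and for 35.8% of all genes. With miR-21 exosomes this held for 1 of 9 members, Ptgs2, and for 26.2% of all genes.

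Antagomir-21 over scramble was positive for 7 of 9 members with GFP exosomes, beside 51.2% of all genes (median log2 fold change 0.96, against 0.03 over all genes). With miR-21 exosomes it was positive for 7 of 9, beside 47.9% (0.17, against −0.05). Over both it was positive for 8 of 9, with Ltc4s as the exception, beside 49.8% (0.71, against −0.004). Over the 9097 genes at or above the median signal, 6 members among them, these medians were 0.15, 0.04 and 0.11. miR-21 over GFP exosomes was positive for 4 of 9 members after scramble, beside 51.4% of all genes (median −0.33, against 0.04). After lipofectamine alone it was positive for 6 of 9, beside 49.3% (0.16, against −0.02). After antagomir-21 it was positive for 3 of 9, beside 47.3% (−0.32, against −0.08). Over all transfections it was positive for 4 of 9, beside 49.0% (−0.24, against −0.02). For the same 9097 genes the medians were −0.11, −0.13, −0.26 and −0.19. The scramble and antagomir-21 arrays are shared among these comparisons.

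**Figure D4:**
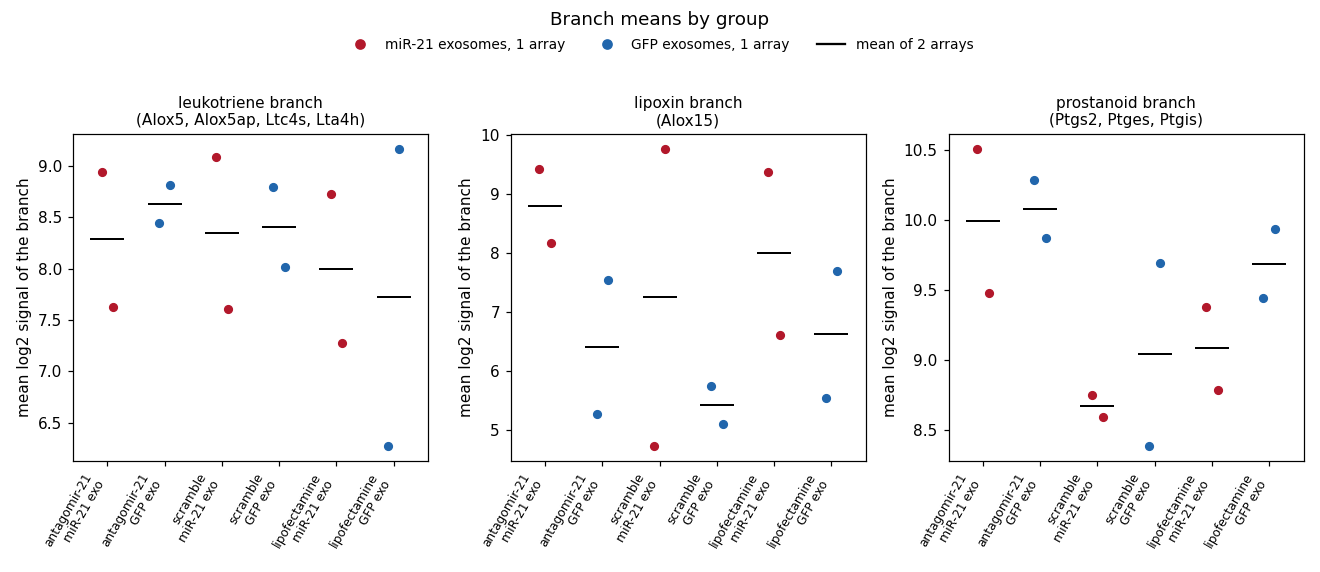
Mean log2 signal per array over the members of each branch, by group. Each point is 1 array and black lines are means of 2 arrays, with a separate vertical axis for each branch. Prostanoid means are higher with antagomir-21 (9.48 to 10.51) than with scramble (8.39 to 9.70) apart from 1 overlapping pair, while leukotriene and lipoxin means overlap widely.

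The branches were compared by the mean log2 signal of their members on each array, as a description. The prostanoid mean of Ptgs2, Ptges and Ptgis was 10.51 and 9.48 with antagomir-21 and miR-21 exosomes and 10.29 and 9.87 with antagomir-21 and GFP exosomes, against 8.76 and 8.59 with scramble and miR-21 and 8.39 and 9.70 with scramble and GFP exosomes. Antagomir-21 thus stood 1.18 above scramble, with a pooled SD between replicates of 0.54. With lipofectamine alone the prostanoid groups averaged 9.08 with miR-21 and 9.69 with GFP exosomes, between those of antagomir-21 and scramble with miR-21 and with GFP exosomes. With GFP exosomes Ptgs2 went against this mean (−1.04), and Ptges and Ptgis, which made it up there, varied with the macrophage markers over the 12 arrays (r 0.862 and 0.696), whose own part was not tested. The leukotriene mean differed by 0.08 for the same comparison (SD 1.12) and the lipoxin gene Alox15 by 1.27 (SD 1.93), both within the spread between replicates.

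For miR-21 against GFP exosomes over all transfections, the branch differences were −0.35 for prostanoids, −0.04 for leukotrienes and 1.86 for the lipoxin gene, each smaller than its SD between replicates. Within the prostanoid branch the members did not move as one: after scramble, miR-21 exosomes went with −2.43 for Ptgs2, 2.01 for Ptges and −0.69 for Ptgis on the log2 scale. The leukotriene mean ranged from 6.28 to 9.16 between the 2 arrays of lipofectamine with GFP exosomes alone.

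Some members followed each other over the 12 arrays. These correlations took no account of group, so differences between groups enter them. Of 36 pairs, 3 had a Pearson r with an adjusted permutation p under 0.05, and all were positive. The share among pairs of other genes was not counted. Alox5ap and Ptgis, of the leukotriene and the prostanoid branch, had r 0.832 (permutation p = 0.00118, adjusted p = 0.0212) and Spearman rho 0.825 (permutation p = 0.00151, adjusted p = 0.0272), with r 0.899 without the 2 arrays farthest from the median. Alox5 and Ptges had r 0.767 (permutation p = 0.00094, adjusted p = 0.0212) and rho 0.706 (permutation p = 0.0125, adjusted p = 0.112), with r 0.739 without those 2 arrays. Alox5ap and Ptges had r 0.721 (permutation p = 0.0031, adjusted p = 0.0372), rho 0.846 (permutation p = 0.00089, adjusted p = 0.0272) and r 0.758 without them. Alox5 and Alox5ap, whose proteins work together, had r 0.602 (permutation p = 0.0405, adjusted p = 0.292) and rho 0.587 (permutation p = 0.0491, adjusted p = 0.354), with r 0.486 without them. By rank, Ptges and Ptgis of the prostanoid branch also passed, with rho 0.79 (permutation p = 0.00336, adjusted p = 0.0403), whereas their r was 0.647 (permutation p = 0.0208, adjusted p = 0.187).

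**Figure D5:**
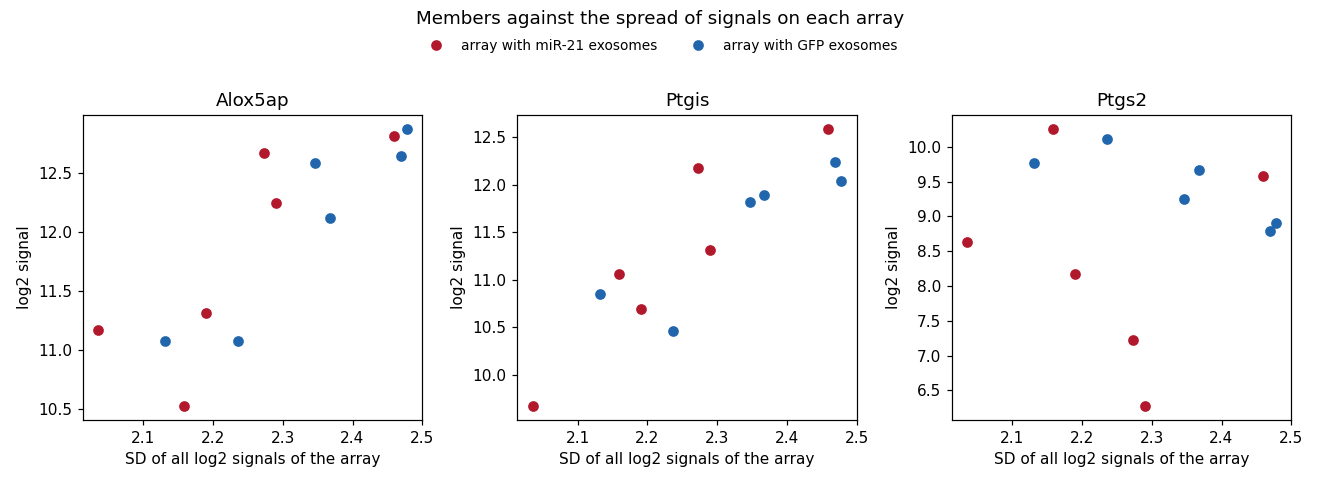
Log2 signal of Alox5ap, Ptgis and Ptgs2 against the SD of all log2 signals of the array. Each point is 1 of 12 arrays, red with miR-21 and blue with GFP exosomes. Alox5ap and Ptgis are higher on arrays with a wider spread (r 0.847 and 0.885), and Ptgs2 is not (r −0.019).

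Alox5ap and Ptgis also followed a property of the arrays. The SD of all log2 signals ran from 2.04 to 2.48 between arrays. The 2 widest arrays were those of antagomir-21 with GFP exosomes (2.469 and 2.478), against 2.236 and 2.367 for scramble with GFP exosomes. Over 9 members tested, 2 rose with this SD. For Alox5ap r was 0.847 (permutation p = 0.00067, adjusted p = 0.00301) and rho 0.811 (adjusted permutation p = 0.00985), with r 0.843 without the 2 farthest arrays. For Ptgis r was 0.885 (permutation p = 0.00026, adjusted p = 0.00234) and rho 0.825 (adjusted permutation p = 0.00985), with r 0.836 without them. Ptges (r 0.514, adjusted permutation p = 0.245), Alox5 (r 0.313, adjusted permutation p = 0.467) and Ptgs2 (r −0.019, adjusted permutation p = 0.953) did not pass. After quantile normalization, which gives all arrays one distribution, r was 0.629 for Alox5ap and 0.786 for Ptgis against the same SD, and 0.579 between the pair. The median r with this SD was −0.039 over all genes and 0.469 over the 4549 genes with the highest mean signal. How many of all genes passed such a test was not counted. The part of array spread in the shared variation of Alox5ap and Ptgis was not tested further. Its part in their values with antagomir-21 and scramble and GFP exosomes was not tested either.

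The mean signal of the 10 macrophage markers varied as well, from 10.53 to 12.14 between arrays. Of 9 members tested against it, 4 rose with it. These were Alox5ap (r 0.819, permutation p = 0.00048, adjusted p = 0.00283, rho 0.895), Ptges (r 0.862, permutation p = 0.00063, adjusted p = 0.00283, rho 0.741), Ptgis (r 0.696, permutation p = 0.0113, adjusted p = 0.0338, rho 0.748) and Alox5 (r 0.664, permutation p = 0.0153, adjusted p = 0.0345, rho 0.587, with an adjusted permutation p = 0.109 for rho). Without the 2 farthest arrays r was 0.824 for Alox5ap, 0.598 for Ptges, 0.732 for Ptgis and 0.47 for Alox5. Ptgs2 (r −0.248, permutation p = 0.436) and Alox15 (r 0.26, permutation p = 0.423) did not pass. How many of all genes rose with the macrophage markers was not counted, so 4 of 9 does not set the members apart from other genes. The log2 of the summed macrophage markers was 16.92 to 18.72 and 18.45 to 18.59 with antagomir-21 (miR-21 and GFP exosomes), against 17.31 to 18.46 and 17.60 to 17.98 with scramble. With GFP exosomes, where Ptges, Alox5 and Alox5ap stood higher with antagomir-21, the macrophage markers therefore did so too, and their part in those values was not tested.

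Around the members, 51 further genes of eicosanoid metabolism were listed, of which 45 were measured. Their median log2 fold change lay between −0.09 and 0.04 in the 9 comparisons, and 0 to 5 of 45 were called at an unadjusted p under 0.05 in any one (limma), none at an adjusted p. There were 22 such calls, by 11 genes, in 405 tests, a share (5.43%) within the 3.84% to 5.7% of all genes called in these comparisons, so that the genes are given for their values. Of the 22, 3 were lost under no alternative that tested the gene, and 1 of these was tested in all 17. That was Abcc4 with GFP exosomes, which codes for MRP4, a transporter that exports prostaglandins from cells. With GFP exosomes its log2 signals were 9.26 and 9.59 in antagomir-21–transfected PMs, against 5.25 and 6.91 in scramble-transfected PMs (log2 fold change 3.35 ± 0.91, adjusted p = 0.698).

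Abcc4 was also higher with miR-21 than with GFP exosomes after scramble, with 8.87 and 9.47 against 5.25 and 6.91 (log2 fold change 3.09 ± 0.91, adjusted p = 0.732). In both cases the low side was the same 2 arrays, scramble with GFP exosomes, in which Ptges and Alox5 were low as well. Without replicate 1 of that group the exosome difference of Abcc4 was 2.26 and did not pass the unadjusted threshold. Ephx2, the soluble epoxide hydrolase, was 7.99 and 7.92 with antagomir-21 and GFP exosomes, against 4.32 and 4.69 with scramble and GFP exosomes (log2 fold change 3.45 ± 1.15, adjusted p = 0.721), and scramble was below lipofectamine alone over both exosomes (−2.47 ± 0.81, adjusted p = 0.9999). Antagomir-21 over scramble across both exosomes gave 1.86 for Abcc4, 2.35 for Ephx2 and 2.06 for Ptgds, a prostaglandin D2 synthase, and −3.04 for the lipoxygenase Alox8 and −2.88 for the phospholipase Pla2g12a, with adjusted p-values of 0.775 to 0.930. Of these, Ptgds was 0.25 with the mean of its probe sets and lost its call in 6 of 16 alternatives, and Pla2g12a ran from −4.10 to −1.66 and lost its call in 4.

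Among receptors, Ptger1, the EP1 receptor of prostaglandin E2, was higher with miR-21 than with GFP exosomes after antagomir-21, at 8.57 and 7.46 against 3.70 and 5.45 (log2 fold change 3.44 ± 1.17, adjusted p = 0.605), and after scramble, at 8.87 and 8.25 against 4.79 and 6.80 (2.77 ± 1.17, adjusted p = 0.840). After lipofectamine alone its arrays overlapped, at 5.70 and 8.37 with miR-21 and 7.65 and 7.48 with GFP exosomes. Over all transfections it was 1.89 higher. With the mean of all its probe sets these differences were 0.75 after antagomir-21, 2.0006 after scramble and 1.12 over all transfections, and with quantile normalization the first was 2.48, none of which passed the unadjusted threshold. Ltb4r1, the high-affinity receptor of leukotriene B4, was 8.73 and 8.70 with miR-21 exosomes after scramble, against 6.02 and 4.22 with GFP exosomes. Its log2 fold change was 3.59 ± 1.31 (adjusted p = 0.797 by limma). With quantile normalization it was 3.13 and did not pass the unadjusted threshold.

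The remaining calls were Tbxa2r, the thromboxane receptor (2.84), the epidermal lipoxygenase Aloxe3 (2.87) and Alox8 (−3.45) for antagomir-21 over scramble with miR-21 exosomes, the dipeptidase Dpep1 (−2.97) for miR-21 exosomes after scramble, Ptgfr, the receptor of prostaglandin F2α (1.56), and Abcc4 (1.40) for miR-21 exosomes over all transfections, Aloxe3 (−2.81) and Pla2g12a (2.60) for scramble over lipofectamine alone, and Abcc4 (−2.97) for the interaction, all as log2 fold changes. By the rule that names 2 genes of each list, the mean log2 signals over 12 arrays were 9.92 and 8.42 for the phospholipases Pla2g15 and Pla2g4c, 9.25 for the lipoxygenase Alox12, 7.77 and 7.64 for Mgst2 and Mgst3, 10.55 and 9.07 for the synthases Tbxas1 and Prxl2b, 10.37 and 10.33 for Abcc1 and Ptgr2, and 12.58 and 10.76 for the receptors Ptger4 and Ptgir. None of these passed an unadjusted p under 0.05 in any comparison (limma). Of the remaining calls, quantile normalization lost Aloxe3 (2.76) and Alox8 (−2.91) with miR-21 exosomes, Dpep1 (−2.97) and Ptgfr (1.35). Median centring lost Abcc4 over all transfections (1.19) and its interaction (−3.01), with Alox8 and Ptgfr again. With the mean of all probe sets Dpep1 (−1.73) and Ptgfr (0.72) were lost. Tbxa2r and the calls for scramble over lipofectamine alone were kept under these settings. Over all alternatives, those without 1 array among them, Tbxa2r ran from 2.13 to 3.55. Pla2g12a for scramble over lipofectamine alone ran from 1.37 to 3.82. Neither of these 2 calls was kept under every alternative.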

How the data were processed

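RNA of PMs was amplified with a NuGEN kit, biotin-labeled and hybridized to Affymetrix Mouse 430V2 arrays, per the labels; the methods name a WT Pico kit. The values that the authors deposited are log2 signals, 1 for each probe set. The methods describe RMA with quantile normalization in affy, but medians (7.92 to 8.58) and SDs differ between arrays while trimmed linear means (2% at each end) are 496 to 499, so the deposited values were scaled to one mean and not quantile normalized. A genome build was not used. Signal over background is not known, and the number of arrays limits the precision.

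Of 45037 probe sets, 34945 had 1 gene symbol in the platform annotation; 932 with several and 9160 not listed were left out. The 18193 genes, each by its probe set of highest mean, were fitted by group (R 4.3.3, limma 3.58.1, lmFit then eBayes), which leaves 6 residual degrees of freedom, and p-values were adjusted by Benjamini-Hochberg over all genes. The script was first tested on simulated data. Errors are SE unless stated. Correlations over arrays used 100000 permutations, two-sided, with adjustment over the pairs stated. The methods call the replicates of the array experiments independently collected, whereas the labels do not say that arrays came from separate cultures, in which case p-values measure only the spread between arrays. Replicate numbers do not pair the arrays (15 correlations of deviations, −0.192 to 0.167).

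Members, gene lists and comparisons were chosen with earlier results of these data known. Named genes were all members, listed pathway genes at an unadjusted p under 0.05, 2 of highest mean per list, and 3 genes most like Alox5ap, Alox15 and Ptgs2. Alternatives were quantile normalization, median centring, the mean of all probe sets, a filter on low signals, a replicate block and leaving out each array. Listed genes not analysed here were Pla2g4b, Ggt1, Dpep2, Ptges3, Akr1b3 and Ltb4r2.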

Additional observations from a re-analysis of the deposited data

How the results depend on the processing

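The number of members at an adjusted p under 0.05 was 0 in all 9 comparisons under every alternative run. At an unadjusted p under 0.05, quantile normalization and median centring each gave 1 member (Ptgs2, −1.03 and −1.26) for miR-21 against GFP exosomes over all transfections, against 0 as deposited; these scalings left the other counts as they were, and median centring moved the median of all genes there to −0.23, against −0.02 as deposited. With the mean of all probe sets, the counts of 1 became 0 for antagomir-21 against scramble with GFP and with miR-21 exosomes, for miR-21 exosomes after scramble and for the interaction. Among the fold changes given above, that setting turned the sign of 3. These were Ptgs2 for antagomir-21 with GFP exosomes (0.39, against −1.04) and for miR-21 exosomes after antagomir-21 (−0.070, against 1.07). The third was Ptges for antagomir-21 with miR-21 exosomes (−0.011, against 0.17). Member fold changes not given above, such as those of Lta4h within single transfections, are not in this count. The filter on low signals left 6 of 9 members (without Ltc4s, Lta4h and Alox15) and 9097 genes, with the same calls. The cause of these changes was not tested.

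Without one array in turn, where a group left with 1 array is assumed to vary like the others, the members at an unadjusted p under 0.05 ran from 0 to 1 for antagomir-21 against scramble with either exosome and over both and for miR-21 exosomes after lipofectamine, and from 0 to 2 for miR-21 exosomes after scramble and over all transfections, for scramble against lipofectamine and for the interaction. Ptges for antagomir-21 with miR-21 exosomes ran from −0.95 to 1.29. Leaving out replicate 2 of scramble with miR-21 exosomes added Alox15 for antagomir-21; leaving out replicate 2 of scramble with GFP exosomes added Ptges to the interaction (−4.49), as did leaving out replicate 1 of antagomir-21 with miR-21 exosomes (−4.14). Without replicate 2 of lipofectamine with GFP exosomes, Ltc4s and Lta4h (3.01) passed for scramble against lipofectamine. With the replicate block, Ptgs2 after scramble (−2.43) and the member counts were as in the fit without it, such as 1 of 9 after scramble; among pathway genes the calls of Alox8 for antagomir-21 with miR-21 exosomes (−3.45), of Dpep1 after scramble (−2.97) and of the Abcc4 interaction (−2.97) were lost.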

Other observations

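Over the 12 arrays, the genes most like Alox5ap were Ifi30 (Pearson r 0.978), Saa3 (0.976) and Tmsb4x (0.976), all well expressed in activated or resting macrophages as background. The genes most like Ptgs2 were Heatr3 (0.936), Dnal1 (0.910) and Dusp7 (0.909), and those most like Alox15 were Col5a3 (0.932), Mybbp1a (0.922) and Ap4m1 (0.879). They were picked as the highest of all 18193 genes, so their r values are a description and carry no test. Alox5ap and its likes had mean log2 signals of 11.92 for Alox5ap, 13.43 for Ifi30, 16.59 for Saa3 and 14.90 for Tmsb4x, and genes of high signal as a class followed the spread of the arrays, with a median r of 0.469.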
